A study of Mus musculus with 16 samples.

Results

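The ATP-binding cassette (ABC) transporter genes of the mouse were examined in stem and progenitor cells with and without the enhancer that drives PU.1. The members were chosen by symbol, as every gene named Abca to Abcg followed by a number and at most 1 letter, which gave 50 of the 54347 genes measured. RNA was sequenced from 2 bone marrow populations sorted from 8 to 12 weeks old mice: LSKs (Lin-Sca-1+c-Kit+ cells, which hold stem cells and multipotent progenitors) and GMPs (Lin-Sca-1-c-Kit+Cd16/32+ granulocyte-monocyte progenitors). URE mice lack the upstream regulatory element of Spi1, the gene of PU.1, and WT littermates on the same C57BL/6 background served as controls. Each of the 4 groups (WT LSK, URE LSK, WT GMP, URE GMP) holds 4 libraries, 16 in all. The deletion is carried by the whole animal, so the sorted cells developed in a URE marrow.

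ABC proteins use ATP to move substrates across membranes. The A, B, C, D and G subfamilies hold pumps that carry drugs, lipids, bile salts, conjugated metabolites, fatty acids or peptides. The E and F subfamilies have no membrane part and act at the ribosome. In blood, the pumps Abcb1 and Abcg2 are known for the dye efflux by which stem cells are recognised, and Abca1 and Abcg1 carry cholesterol out of progenitors and macrophages. By these textbook roles, the 50 members comprised 10 drug efflux pumps, 18 lipid transporters of the cell membrane and endosomes, 3 peroxisomal fatty acid transporters, 6 mitochondrial and lysosomal transporters, 2 potassium channel subunits, 4 soluble proteins of the ribosome and 7 other members.

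Total counts lay between 20028302 and 29128858 per library. Levels are CPM, counts scaled to library size, with TMM factors over all 16 libraries. A count of 3 in a library, the floor used here, corresponded to 0.0961 to 0.169 CPM. Spi1 had 1.13 to 4.44 CPM in URE LSKs against 69.5 to 166 in WT LSKs. In GMPs it had 15.6 to 28.6 CPM in URE against 84.8 to 181 in WT. Sca-1 (Ly6a) had 35.1 to 122 CPM over the LSK libraries and 0.564 to 2.88 over the GMP libraries, while Mpo was at 43590 CPM or more in every GMP library. Markers of the sorted cells themselves also differed between genotypes. Cd34 was lower in URE, at 401 to 771 CPM against 1246 to 1463 in LSKs and 279 to 333 against 900 to 1178 in GMPs. The cytokine receptor Flt3 was called lower in both cell types as well, so that 2 of 7 LSK markers were called in each. A block on the replicate number called 2 of the 7 in LSKs and 3 in GMPs. Of 6 GMP markers, Elane was called higher and Prtn3 lower in URE LSKs, and Fcgr3 higher in URE GMPs. With replicates blocked by their number, 3 of these 6 were called in LSKs and 4 in GMPs. Beside these and the markers below, 6.14% of all genes tested were called between genotypes in LSKs and 8.3% in GMPs. With the block the shares were 9.46% and 16.3%. Some markers of other cell types also moved with genotype. The summed level of 5 mature neutrophil markers was 172 to 328 CPM in URE LSKs against 34.5 to 158 in WT LSKs and 219 to 945 CPM in URE GMPs against 58.6 to 141 in WT GMPs. The sum of 5 monocyte and macrophage markers was 26.4 to 112 CPM in URE GMPs against 326 to 449 in WT GMPs, and 9.7 to 25.7 in URE LSKs against 24.4 to 46.7 in WT LSKs, where Csf1r and Ly86 were called lower. None of these 10 markers was at 0 in a whole group. The neutrophil receptor Cxcr2 went against its list, at 0.546 to 2.12 CPM in URE LSKs, 2.78 to 3.83 in WT LSKs, 8.73 to 17.2 in URE GMPs and 15.2 to 17.9 in WT GMPs. Its groups did not overlap in LSKs, and it was not called with or without the replicate block. In LSKs the block called 3 neutrophil markers, Ngp, Camp and S100a8, of which Ngp was called without it. The 4 mast cell and basophil markers summed to 129 to 253 CPM in URE LSKs and 67.6 to 154 in WT LSKs, and to 851 to 2354 in URE GMPs and 624 to 1172 in WT GMPs. Of these markers Cpa3 and Mcpt8 were called higher in URE LSKs, while in GMPs Mcpt8 was called higher and Prss34 lower (13.1 to 54.6 CPM in URE against 124 to 250 in WT). Of the endothelial markers, Tek, which stem cells also express, was called lower in URE in both cell types (5.04 to 9.52 CPM against 24.6 to 56 in LSKs). Hbb-bt of the erythroid markers was called lower and Itga2b of the megakaryocyte markers higher in URE LSKs. The replicate block called 2 of the 5 erythroid markers there. The other megakaryocyte markers, Pf4 and Gp9, were not called and had lower medians in URE LSKs (5.25 and 3.59 CPM) than in WT LSKs (13.5 and 8.74 CPM). The 3 mesenchymal markers summed to 26.8 to 227 CPM in URE LSKs and 12.1 to 75.7 in WT LSKs, ranges that overlapped. In GMPs they summed to 16.6 to 160 CPM in URE and 9.04 to 87.6 in WT, which overlapped too. Of the 2 tested, none was called without the replicate block, and the block called 1 in each cell type. T and NK cell markers summed to at most 0.47 CPM. The part of these cells in the differences below was not tested, and in bulk RNA fewer cells of a type and less RNA per cell cannot be told apart. Y-linked transcripts were detected in URE replicate 1 and WT replicates 1 to 3 in both cell types. They were near 0 in the other libraries, so sex was unevenly spread over the genotypes. Within replicates 2 and 3, the WT libraries had these transcripts and the URE libraries did not. Fits on these replicates alone therefore cannot tell genotype from sex. Replicates 1 and 4 were each matched between genotypes in this respect. Replicates 1 and 4 were the most alike pair of libraries in every group, while replicates 2 and 3 were the next most alike pair in all but URE GMPs. The labels do not state whether LSK and GMP libraries of 1 number come from the same mouse.

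Of the 50 members, 9 had no count in any library: Abca12, Abca15, Abca16, Abcb5, Abcb11, Abcc6, Abcc12, Abcg5 and Abcg8. A further 7 had at most 38 counts in a library and were never tested (Abca6, Abca8a, Abca14, Abca17, Abcc8, Abcc9 and Abcg4). Both potassium channel subunits, Abcc8 and Abcc9, were among them. The remaining 34 passed the filter on low counts in at least 1 comparison and 28 in every comparison. Per kilobase of annotated exon, Abcf2 had the highest mean level of the family in each group, with 56.5 CPM per kilobase in WT LSKs, 77.6 in URE LSKs, 113 in WT GMPs and 102 in URE GMPs. The lipid transporter Abcg1 came next in LSKs (51.8 per kilobase in WT and 65.8 in URE), and Abce1 in GMPs (64.2 in WT and 55.3 in URE).

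Most members called between genotypes without a replicate block lie in a pair of gene rows. Abcb1a (chr5:8660077-8748575), Abcb1b (chr5:8798147-8866315) and Abcb4 (chr5:8893717-8959231) follow each other on the plus strand, with 49571 and 27401 bases between neighbours. Abca8b (chr11:109932190-109995845), Abca8a, Abca9 (chr11:110100749-110168196), Abca6 and Abca5 form a row on the minus strand of the same build, GRCm38, as annotated by GENCODE M21. Abca13 lies apart on chr11:9191942-9684259. The sequences just upstream of the start of 5 of the members called between URE and WT are given 5′ to 3′ on the strand of the gene, from RefSeq on GRCm38.p6, since these members carry the genotype differences. They span chr5:8797897-8798146 for Abcb1b, chr5:8893471-8893716 for Abcb4, chr11:109995846-109996095 for Abca8b, chr11:110168197-110168403 for Abca9 and chr11:9191692-9191941 for Abca13. Capitals mark GAGGAA, a core of PU.1 sites, and TGNGGT, a core of RUNX sites, on either strand.
Abcb1b: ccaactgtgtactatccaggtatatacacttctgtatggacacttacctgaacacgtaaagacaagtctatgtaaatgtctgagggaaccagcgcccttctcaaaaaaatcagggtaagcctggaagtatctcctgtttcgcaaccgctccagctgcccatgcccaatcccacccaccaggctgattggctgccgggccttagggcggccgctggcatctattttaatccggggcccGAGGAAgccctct
Abcb4: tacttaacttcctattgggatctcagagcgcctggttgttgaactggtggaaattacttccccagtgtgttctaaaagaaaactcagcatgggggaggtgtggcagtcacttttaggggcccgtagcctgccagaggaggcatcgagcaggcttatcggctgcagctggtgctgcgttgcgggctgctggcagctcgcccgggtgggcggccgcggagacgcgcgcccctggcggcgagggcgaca
Abca8b: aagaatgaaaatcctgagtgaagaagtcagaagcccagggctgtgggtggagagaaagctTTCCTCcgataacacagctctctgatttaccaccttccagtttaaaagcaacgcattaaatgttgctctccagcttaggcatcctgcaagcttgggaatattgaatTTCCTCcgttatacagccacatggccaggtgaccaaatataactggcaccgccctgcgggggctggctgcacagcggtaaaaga
Abca9: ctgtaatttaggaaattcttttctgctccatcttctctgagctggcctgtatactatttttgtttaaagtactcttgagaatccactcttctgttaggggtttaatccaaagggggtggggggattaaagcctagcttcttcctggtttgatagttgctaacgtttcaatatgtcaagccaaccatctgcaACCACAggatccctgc
Abca13: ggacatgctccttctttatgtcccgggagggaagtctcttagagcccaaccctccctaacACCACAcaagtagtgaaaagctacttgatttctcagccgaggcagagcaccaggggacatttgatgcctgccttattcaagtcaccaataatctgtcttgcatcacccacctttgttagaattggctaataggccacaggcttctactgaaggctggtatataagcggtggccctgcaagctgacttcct

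In the 250 bases before the start, GAGGAA occurred 2 times for Abca8b, 1 time for Abcb1b and 1 time for Abca9, where it lies in annotated exon that is not printed. TGNGGT occurred 1 time each for Abca9 and Abca13, and neither core occurred for Abcb4. Over 32851 RefSeq promoters, 23.3% of such windows hold GAGGAA and 40.1% hold TGNGGT. These matches describe letters in a short window, and binding was not measured. For Abcb1a, the start in RefSeq lies 92986 bases from the nearest start in GENCODE, so no sequence is shown. RefSeq entries were matched for 38 of the 50 members.

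The first question was whether loss of the enhancer altered ABC transporter expression in LSKs. Of 30 members tested there, 1 was higher and 2 were lower in URE than in WT (edgeR's quasi-likelihood test, Benjamini-Hochberg adjusted p under 0.05 and fold change above 1.5), where 6.14% of all genes tested were called, 2.38% higher and 3.76% lower. The range of the 4 URE libraries lay outside that of the 4 WT libraries for 6 members, where this held for 12.6% of all genes tested. When replicates were blocked by their number, 7 of the 30 members were called, 4 higher (3.83% of all genes) and 3 lower (5.62%), beside 9.46% in either direction. The LSK count of 3 became 1 without URE LSK replicate 1, without URE LSK replicate 4 or without WT LSK replicate 2. It was 0 with Y-linked transcripts as a covariate and 0 with only replicates 2 and 3, in which sex differed with genotype. Over all genes, 930 were called, 510 with that covariate and 386 with only replicates 2 and 3. In GMPs, 4 of 32 members tested were called, 2 higher and 2 lower, beside 8.3% of all genes (4.67% higher and 3.63% lower). Groups did not overlap for 6 members in GMPs, beside 14.8% of all genes, and the replicate block called 10 members, 8 higher and 2 lower, beside 16.3% (9.52% higher and 6.82% lower). The GMP count of 4 became 2 with the Y-linked covariate and 1 with only replicates 2 and 3. Over all genes, 1148 were called in GMPs, 630 with the covariate and 108 with only replicates 2 and 3. Without the block, Abcb1b was the 1 member called in both cell types, and with it Abca2 and Abcb9 were called in both as well.

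**Figure D1:**
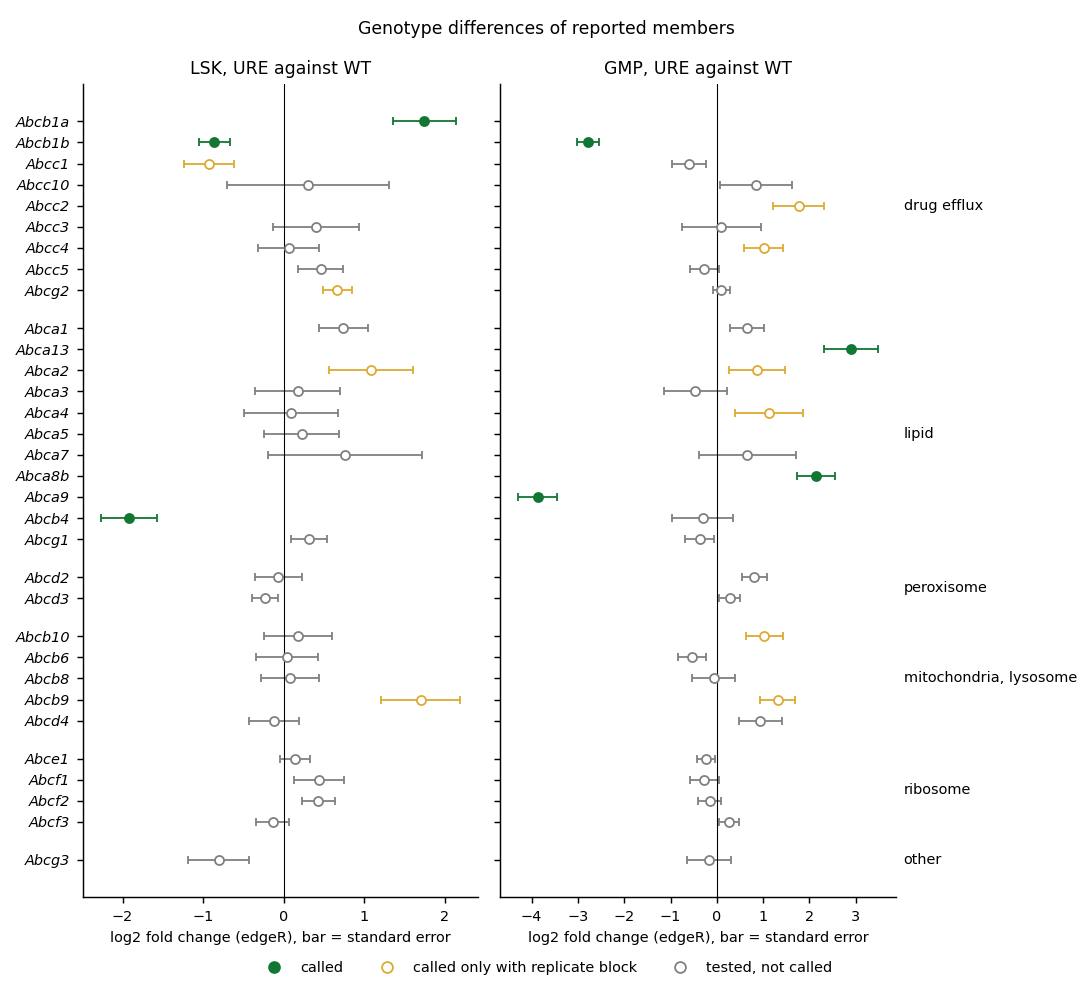
log2 fold change of URE against WT for the reported members tested in LSKs (left) and GMPs (right), in rows grouped by role, with the standard error as bars. Filled green points are called, open yellow points are called only with the replicate block and grey points are not called. Abcb4 is the lowest point in LSKs (−1.92) and Abca9 the lowest in GMPs (−3.87).

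Drug efflux pumps were described first. Of the 10 pumps, 8 were tested between genotypes in each cell type. In LSKs, 1 was called higher and 1 lower, with a median log2 fold change of 0.351 over the pumps tested against 0.001 over all genes tested, beside 6.14% of all genes called, and the replicate block called 4 (9.46% of all genes). In GMPs, 1 was called, lower in URE, with a median of 0.101 against 0.005, beside 8.3% of all genes, and the block called 3 (16.3%). Summed over the 10 pumps, the level per kilobase was 36.3 ± 6.61 CPM (SD, n = 4) in WT LSKs, 42.7 ± 6.41 in URE LSKs, 27.5 ± 7.27 in WT GMPs and 31.7 ± 7.64 in URE GMPs, and the genotypes' ranges overlapped in both cell types.

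Abcb1b (ENSMUSG00000028970), 1 of the 2 mouse genes of P-glycoprotein, the multidrug pump of the plasma membrane, had 44.8, 48.2, 50.8 and 38.8 CPM in WT LSKs of replicates 1 to 4. In URE LSKs it had 24.3, 25.1, 31.1 and 22.7 CPM. Every URE library was thus below every WT library. The log2 fold change was −0.86 (standard error 0.19, edgeR adjusted p = 0.0258), a 1.81-fold lower level. In GMPs, Abcb1b had 34, 30.6, 44.1 and 28.9 CPM in WT and 4.24, 5.59, 5.64 and 4.79 CPM in URE. The gap between genotypes was wider here, and the lowest WT library was still far above the highest URE library. The level in URE GMPs was 6.85-fold lower, a log2 fold change of −2.78 (standard error 0.23, edgeR adjusted p = 0.000334). The exact permutation p was 0.0286 in each cell type, the smallest that 4 against 4 libraries can give.

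Whether the genotype difference of Abcb1b itself differed between LSKs and GMPs was tested by the interaction term. It was −1.94 (standard error 0.26, edgeR adjusted p = 0.00209 over 15935 genes), so that the fall was 3.83-fold larger in GMPs. Abcb1b was the 1 member called of 34 tested for interaction, beside 1.22% of all genes (0.866% above 0 and 0.351% below). The term was called without each of the 16 libraries in turn and with only replicates 1 and 4 (−1.97, adjusted p = 0.0246), but not with only replicates 2 and 3 (−1.90, adjusted p = 0.58, the highest over its alternatives). With the replicate block, Abcf1, which acts in translation initiation, was the second member called (−0.68, edgeR adjusted p = 0.0487), beside 6.57% of all genes (3.97% above 0 and 2.6% below).

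The call for Abcb1b in GMPs was kept without each library in turn and with Y-linked transcripts as a covariate (−2.74, edgeR adjusted p = 0.00275), with adjusted p between 2.4e-28 and 0.0398 over the alternatives. In LSKs, the call was lost without any 1 of 6 libraries (URE replicates 1, 2 and 4 and WT replicates 1, 2 and 3, adjusted p up to 0.0953) and with the Y-linked covariate (−0.79, edgeR adjusted p = 0.162), while the fold change stayed between −0.96 and −0.77 without single libraries. Its adjusted p lay between 0.000993 and 0.289 over the other alternatives.

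Abcb1a (ENSMUSG00000040584), the second P-glycoprotein gene and the neighbour of Abcb1b, moved the other way in LSKs. It had 6.92, 5.67, 2.23 and 4.03 CPM in WT and 19.6, 10.7, 21 and 12.8 CPM in URE. All 4 URE libraries were above the highest WT library. Abcb1a rose 3.34-fold in URE (log2 fold change 1.74, standard error 0.39, edgeR adjusted p = 0.0272). In GMPs it was near the limit of detection in both genotypes, at 0.363 to 0.587 CPM in WT and 0.313 to 1.59 CPM in URE, and it was not tested there. The 2 transcripts share 1186 words of 31 bases, 21.7% of those of Abcb1a and 14.8% of those of Abcb1b, so reads of 1 gene may be assigned in part to the other. Of the exonic bases of Abcb1a, 553 (10.1%) also lie in Gm42686 on the opposite strand, and the libraries do not keep the strand. The call was lost without URE LSK replicates 1, 3 or 4 or WT LSK replicates 2 or 4 (edgeR adjusted p up to 0.0916) and with the Y-linked covariate (1.90, adjusted p = 0.0676), with log2 fold changes between 1.53 and 1.99 without single libraries and adjusted p between 0.000358 and 0.135 over the other alternatives.

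Abcg2 (ENSMUSG00000029802), the pump behind the side population of stem cells, had 94.2, 93.7, 98.4 and 112 CPM in WT LSKs and 141, 164, 210 and 128 CPM in URE LSKs. The lowest URE library was above the highest WT library. Its difference of 0.66 on the log2 scale missed the threshold (standard error 0.18, edgeR adjusted p = 0.0742), but was called with the replicate block (0.64, adjusted p = 0.0408), with adjusted p between 0.0205 and 0.356 over the alternatives. In GMPs, Abcg2 was at 53.3 to 63.1 CPM in WT and 49.5 to 77.1 in URE, with overlapping groups and a log2 fold change of 0.10 (standard error 0.18, edgeR adjusted p = 0.837). Per kilobase, Abcg2 was the highest of the 10 pumps in LSKs of both genotypes (12.2 CPM per kilobase in WT, 19.7 in URE).

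Abcc1 (ENSMUSG00000023088), which exports glutathione conjugates and leukotriene C4, had 141, 72.6, 63.9 and 86.8 CPM in WT LSKs against 61.2, 28, 49.2 and 57.5 CPM in URE LSKs. These groups did not overlap either, although the lowest WT and the highest URE value lay close. Its log2 fold change of −0.93 (standard error 0.31, edgeR adjusted p = 0.151) was called with the replicate block only (−0.92, adjusted p = 0.0198), with adjusted p between 0.0198 and 0.438 over the alternatives. In GMPs it had 101, 40, 47.1 and 47 CPM in WT and 48.9, 30.3, 25.6 and 51.8 CPM in URE, which overlapped (−0.60, standard error 0.36, edgeR adjusted p = 0.408).

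Abcc4 (ENSMUSG00000032849), a pump of cyclic nucleotides and prostaglandins, had 61, 28.9, 22.2 and 59.6 CPM in WT LSKs and 64.7, 27.1, 36.6 and 54.4 CPM in URE LSKs. Replicates 1 and 4 were the high ones in both genotypes, and the log2 fold change was 0.06 (standard error 0.38, edgeR adjusted p = 0.981). In GMPs it had 84.6, 36.2, 23.8 and 52.3 CPM in WT and 114, 89, 49.8 and 145 CPM in URE, higher in URE in each of the 4 same-numbered pairs. The log2 fold change of 1.01 (standard error 0.42, edgeR adjusted p = 0.215) was called with the replicate block (1.06, adjusted p = 0.00763), with adjusted p between 0.00763 and 0.39 over the alternatives.

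Abcc2 (ENSMUSG00000025194), known as the exporter of conjugated bilirubin in liver, had 1.82, 1.99, 5.96 and 1.09 CPM in WT GMPs and 12.5, 7.31, 5.79 and 12.3 CPM in URE GMPs. Only WT replicate 3 lay within the URE range, and without it Abcc2 was called (2.51, edgeR adjusted p = 0.00825). With all libraries the log2 fold change was 1.77 (standard error 0.55, edgeR adjusted p = 0.086) and it was called with the replicate block (adjusted p = 0.0419), with adjusted p between 0.00307 and 0.74 over the alternatives. In LSKs it had between 0 and 0.43 CPM and was not tested. Abcc3, Abcc5 and Abcc10 were not called between genotypes in either cell type, with or without the replicate block.

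**Figure D2:**
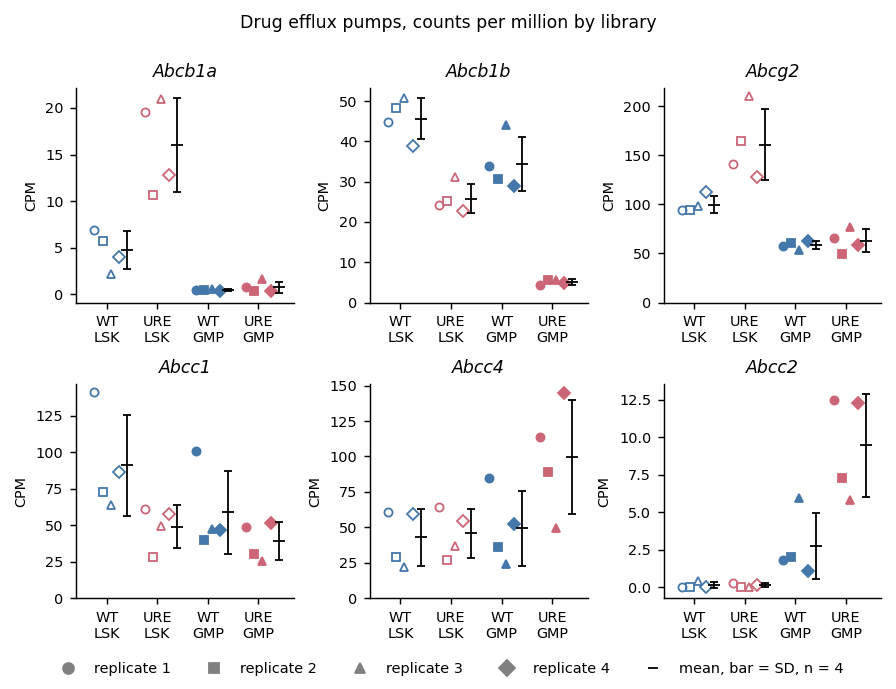
CPM in every library (symbols by replicate, WT blue, URE red, LSK open, GMP filled) for 6 drug efflux pumps, with the mean and SD of each group in black. Abcb1b is lower in URE in both cell types, at 4.24 to 5.64 CPM in URE GMPs, while Abcb1a is higher in URE LSKs, at 10.7 to 21 CPM.

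Lipid transporters came next. Of the 18 lipid transporters, 8 were tested between genotypes in LSKs and 10 in GMPs. In LSKs, 1 was called, lower in URE, and in GMPs 2 were called higher and 1 lower, beside 6.14% and 8.3% of all genes called in either direction. The replicate block called 2 in LSKs (9.46% of all genes) and 5 in GMPs (16.3%). The median log2 fold change over those tested was 0.268 in LSKs and 0.655 in GMPs. Summed over the 18 genes, the level per kilobase was 50.7 to 79.5 CPM in WT LSKs and 80.5 to 122 CPM in URE LSKs, and most of this sum was Abcg1. The sums overlapped in GMPs, at 24.6 to 64.2 CPM per kilobase in WT and 27.6 to 61 in URE.

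Abcb4 (ENSMUSG00000042476), which flips phosphatidylcholine to the outer leaflet and is known from bile secretion, lies next to Abcb1b. It had 5.67, 4.9, 8.59 and 5.12 CPM in WT LSKs and 1.6, 1.89, 2.02 and 1.04 CPM in URE LSKs. No URE library came near the lowest WT library. The level was 3.79-fold lower (log2 fold change −1.92, standard error 0.35, edgeR adjusted p = 0.0111), and Abcb4 was called without each library in turn, but not with the Y-linked covariate (−1.81, adjusted p = 0.0685), with adjusted p between 1.46e-06 and 0.204 over the alternatives. In GMPs, Abcb4 had 8.14, 7.39, 6.6 and 6.54 CPM in WT and 6.03, 1.31, 13.8 and 1.8 CPM in URE. The URE GMP libraries spread to both sides of the WT range, and the log2 fold change of −0.30 (standard error 0.66, edgeR adjusted p = 0.866) moved between −1.27 and 0.02 when single libraries were left out. The interaction was not called for Abcb4.

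Abca9 (ENSMUSG00000041797), a lipid transporter of the chromosome 11 row, had 12.3, 13.7, 10.1 and 11.3 CPM in WT GMPs and 0.386, 0.731, 1.49 and 0.619 CPM in URE GMPs. The genotypes were far apart. Abca9 was 14.6-fold lower in URE (log2 fold change −3.87, standard error 0.42, edgeR adjusted p = 0.00095), and was called without each library in turn and with the Y-linked covariate (−4.14, adjusted p = 0.00454), with adjusted p between 9.27e-21 and 0.0674 over the alternatives. It had 206 to 329 counts in WT GMPs and 8 to 29 in URE GMPs, so it passed the filter through the WT libraries. In LSKs it stayed between 0 and 0.638 CPM and was not tested between genotypes. The monocyte and macrophage markers moved the same way in GMPs: 4 of 5 were lower in URE, among them Csf1r, the receptor of macrophage colony-stimulating factor, at 7.19 to 26.3 CPM in URE and 40 to 268 CPM in WT. Their part in the difference of Abca9 was not tested.

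Abca8b (ENSMUSG00000020620), a cholesterol exporter of the same row, moved in the opposite direction in the same cells. It had 0.433, 0.54, 0.489 and 0.623 CPM in WT GMPs and 1.21, 1.99, 3.43 and 2.65 CPM in URE GMPs. Levels were low in both genotypes, and the groups did not overlap. It had 10 to 13 counts in WT GMPs and 25 to 67 in URE GMPs, so it passed the filter through the URE libraries. Abca8b rose 4.41-fold in URE (log2 fold change 2.14, standard error 0.41, edgeR adjusted p = 0.0114). The call was kept without each library in turn but not with the Y-linked covariate (1.72, edgeR adjusted p = 0.0838), with adjusted p between 7.96e-05 and 0.225 over the alternatives. Of its exonic bases, 241 (3.25%) are shared with the antisense gene Gm11697.

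Abca13 (ENSMUSG00000004668), the longest member with 19737 exonic bases, had 7.75, 2.66, 3.37 and 1.56 CPM in WT GMPs and 18.7, 58.4, 16.3 and 24.1 CPM in URE GMPs. Every URE library was above every WT library. Abca13 rose 7.47-fold in URE (log2 fold change 2.90, standard error 0.58, edgeR adjusted p = 0.0148). The call was lost without WT GMP replicate 2 (2.75, edgeR adjusted p = 0.0528) and with the Y-linked covariate (3.16, adjusted p = 0.073), with adjusted p between 4.98e-06 and 0.0807 over the alternatives. Of the 5 mature neutrophil markers, 1 was called in GMPs, Ngp (2.95, edgeR adjusted p = 0.00126), also higher in URE, and the replicate block called 3, with Camp (2.89, adjusted p = 0.000262) and S100a8 (2.60, adjusted p = 0.00312). The median of the list was 2.473, and Cxcr2 differed by −0.28. The part of these markers' cells in the rise of Abca13 and Abca8b was not tested.

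Abcg1 (ENSMUSG00000024030), which exports cholesterol to high-density lipoprotein, was the most abundant lipid transporter. It had 341, 306, 489 and 375 CPM in WT LSKs and 351, 520, 469 and 581 CPM in URE LSKs, which overlapped (log2 fold change 0.31, standard error 0.22, edgeR adjusted p = 0.631). In GMPs it had 172, 120, 146 and 319 CPM in WT and 155, 115, 199 and 118 CPM in URE (−0.37, standard error 0.32, edgeR adjusted p = 0.621). Abca1 (ENSMUSG00000015243), which loads cholesterol onto apolipoprotein A-I, had 19.6, 13.4, 13.8 and 18.6 CPM in WT LSKs and 22.2, 17.2, 43.3 and 28.7 CPM in URE LSKs. It was higher in URE in each of the 4 same-numbered pairs, but the groups overlapped and it was not called (0.74, standard error 0.30, edgeR adjusted p = 0.273). In GMPs, Abca1 had 3.27 to 7.02 CPM in WT and 4.7 to 12.3 CPM in URE (0.65, standard error 0.36, edgeR adjusted p = 0.373).

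Abca7 (ENSMUSG00000035722), a phospholipid transporter with a role in phagocytosis, varied more between replicates than between genotypes. It had 98.6, 7.72, 11 and 29 CPM in WT LSKs, 107, 7.96, 19.6 and 121 in URE LSKs, 149, 8.43, 12.8 and 22.5 in WT GMPs and 138, 12.7, 17.7 and 138 in URE GMPs. Replicates 1 and 4 were above replicates 2 and 3 in all 4 groups, by 6.83 to 9.05 times in the means. Its genotype difference was 0.76 in LSKs (standard error 0.96, edgeR adjusted p = 0.868) and 0.66 in GMPs (standard error 1.05, adjusted p = 0.812). Leaving out single libraries moved it between 0.25 and 1.98 in LSKs and between 0.21 and 2.39 in GMPs, highest without WT LSK replicate 1 and without WT GMP replicate 1, and it was not called in any of these fits. Abca2, found in endosomes and lysosomes, and Abca4, known from the retina, were not called without the block either. With the replicate block, Abca2 was called in LSKs (edgeR adjusted p = 0.0172) and in GMPs (1.09, adjusted p = 0.0231), and Abca4 in GMPs (1.04, adjusted p = 0.0321), each higher in URE. Abca3 was not called between genotypes. Abca5 was tested between genotypes in LSKs only and was not called there.

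**Figure D3:**
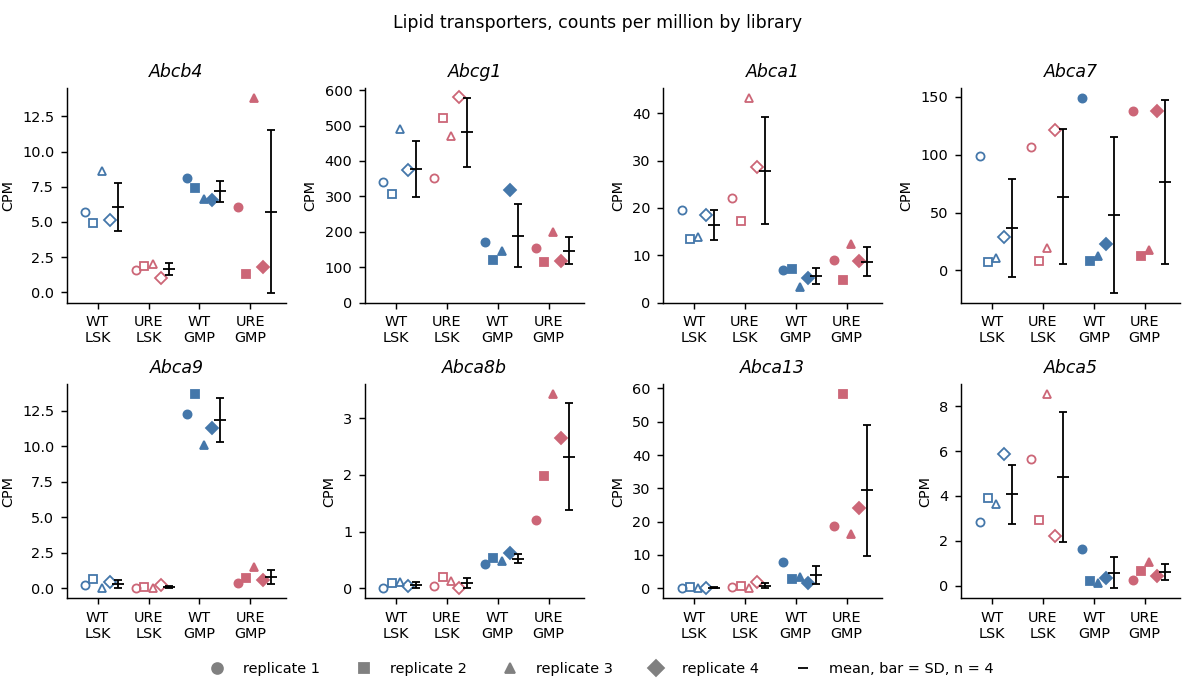
CPM in every library (symbols by replicate, WT blue, URE red, LSK open, GMP filled) for 8 lipid transporters, with the mean and SD of each group in black. Abca9 is high in WT GMPs alone (10.1 to 13.7 CPM), Abca8b and Abca13 are highest in URE GMPs, Abcb4 is lowest in URE LSKs, and Abca7 follows the replicate number.

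In the other roles, none of the 14 members tested was called between genotypes by edgeR without the replicate block. Over all genes tested, 6.14% were called in LSKs and 8.3% in GMPs. The block called 1 of the 14 in LSKs (9.46% of all genes) and 2 in GMPs (16.3%). At an unadjusted p under 0.05 there was 1 in LSKs and 3 in GMPs, and DESeq2 called 1 in each cell type, Abcb9. Over all genes, DESeq2 called 1631 of 29033 in LSKs and 1995 of 27699 in GMPs. The peroxisomal transporter Abcd2, which brings very long-chain fatty acids in for oxidation, had 93.7, 90.9, 113 and 111 CPM in WT GMPs and 138, 305, 128 and 155 in URE GMPs, groups that did not overlap although the change was not called (log2 fold change 0.81). Abcb9, a lysosomal peptide transporter, had 4.46, 2.45, 2.03 and 3.95 CPM in WT LSKs and 21.6, 9.84, 6.45 and 5.02 in URE LSKs. It had 3.12, 1.87, 1.32 and 3.84 CPM in WT GMPs and 8.05, 5.22, 4.61 and 7.49 in URE GMPs. In both cell types every URE library was above every WT library. The log2 fold changes were 1.70 in LSKs (standard error 0.49, edgeR adjusted p = 0.0865) and 1.32 in GMPs (standard error 0.38, adjusted p = 0.0694), and with the block 1.56 (adjusted p = 0.0308) and 1.38 (adjusted p = 0.00962). Abcb10, a mitochondrial transporter needed for haem synthesis, had 60.1, 37, 15.7 and 45.1 CPM in WT GMPs and 110, 95.1, 44.9 and 74.9 CPM in URE GMPs. It was higher in URE in each same-numbered pair and was called with the block (1.11, edgeR adjusted p = 0.00378) but not without it (1.03, adjusted p = 0.174). The ribosome proteins Abce1, Abcf1, Abcf2 and Abcf3 had median log2 fold changes of 0.283 in LSKs and −0.186 in GMPs, with none of the 4 called.

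The second question was how the members differ between LSKs and GMPs of 1 genotype. These comparisons use the same libraries as those above and are not independent of them. In WT mice, 13 of 33 members tested were called, 7 higher and 6 lower in GMPs, beside 27.3% of all genes (11.5% higher and 15.8% lower). In URE mice 14 of 33 were called, 6 higher and 8 lower, beside 21.8% (9.2% higher and 12.6% lower). The groups did not overlap for 12 members in WT (31.4% of all genes) and 14 in URE (26.6%). With the replicate block, 19 members were called in WT, 9 higher and 10 lower (40.9% of all genes, 15.8% higher and 25.1% lower), and 18 in URE, 8 higher and 10 lower (31.9%, 13.3% higher and 18.6% lower). A difference called in 1 genotype alone was not shown to differ between genotypes except for Abcb1b and, with the replicate block, Abcf1, by the interaction given above.

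Among the pumps, Abcb1a and Abcg2 fell from LSK to GMP in both genotypes. Abcb1a was lower in GMPs by −3.32 in WT (standard error 0.42, edgeR adjusted p = 0.000609) and −4.43 in URE (standard error 0.57, adjusted p = 0.000854). It had 6 to 31 counts over the GMP libraries, so it passed the filter through the LSKs, where it is high. Abcg2 differed by −0.78 in WT (standard error 0.14, edgeR adjusted p = 0.00326) and −1.39 in URE (standard error 0.22, adjusted p = 0.00206). Abcb1b, at 38.8 to 50.8 CPM in WT LSKs and 28.9 to 44.1 in WT GMPs, was lower in GMPs in each of the 4 same-numbered pairs but not called in WT (−0.42, standard error 0.19, edgeR adjusted p = 0.137). It fell by 2.39 in URE (standard error 0.22, edgeR adjusted p = 0.000187). Abcc2 was at 0 or up to 0.43 CPM in LSKs and at 1.09 to 12.5 CPM in GMPs, and was called higher in GMPs in WT (4.54, edgeR adjusted p = 0.0135) and URE (6.34, adjusted p = 0.00126). Abcc3, which exports bile acids and glucuronides, had 15, 4.61, 6.15 and 8.78 CPM in URE LSKs and 2.65, 0.888, 1.08 and 4.39 in URE GMPs and fell by 1.98 (edgeR adjusted p = 0.0375), a call lost without any 1 of 5 libraries (URE GMP replicates 1, 2 and 3 and URE LSK replicates 1 and 4, adjusted p up to 0.111).

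The cholesterol exporters Abca1 and Abcg1 were lower in GMPs than in LSKs. Abca1 differed by −1.57 in WT (standard error 0.29, edgeR adjusted p = 0.00376) and −1.72 in URE (standard error 0.38, adjusted p = 0.0112), and Abcg1 by −1.01 in WT (standard error 0.31, adjusted p = 0.0352) and −1.75 in URE (standard error 0.24, adjusted p = 0.00119). The WT call of Abcg1 was lost without any 1 of 6 libraries (WT GMP replicates 1, 2 and 3 and WT LSK replicates 1, 3 and 4, edgeR adjusted p up to 0.0871). Abca5, a lysosomal member, had 2.82 to 5.88 CPM in WT LSKs and 0.147 to 1.65 CPM in WT GMPs. In URE it had 2.22 to 8.55 CPM in LSKs and 0.241 to 1.08 CPM in GMPs. It was lower by −2.77 in WT (edgeR adjusted p = 0.017, and 0.0528 without WT GMP replicate 4) and −3.01 in URE (adjusted p = 0.00737). With 3 to 38 counts over the GMP libraries, Abca5 also passed the filter through the LSKs alone.

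A further set of lipid transporters was low in LSKs. Abca13 had 0.0781 to 0.436 CPM in WT LSKs and 1.56 to 7.75 CPM in WT GMPs (4.40, edgeR adjusted p = 0.00242), and 0 to 1.97 CPM in URE LSKs against 16.3 to 58.4 CPM in URE GMPs (5.20, adjusted p = 0.00471). Abca9 was called higher in GMPs in WT (5.10, edgeR adjusted p = 0.00103), where LSKs had 0 to 0.638 CPM. Abca8b was called higher in GMPs in URE (4.52, edgeR adjusted p = 0.00317), where LSKs had 0 to 0.199 CPM. In several LSK libraries, Abca8b, Abca9, Abca13 and Abcc2 were at or under the floor of 3 counts, so their fitted fold changes depend on the prior count, and they passed the filter through the group where they are high.

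Outside these roles, Abcd2 was higher in GMPs in both genotypes, by 2.36 in WT (standard error 0.19, edgeR adjusted p = 7.99e-05) and 3.19 in URE (standard error 0.36, adjusted p = 0.000451), from 12.6 to 25.9 CPM over the LSK libraries to 90.9 to 305 CPM over the GMP libraries. Abcg3, a rodent relative of Abcg2, showed the reverse, with 38.3, 43.4, 20.1 and 40.3 CPM in WT LSKs, 12.5, 19.1, 36.7 and 14.1 in URE LSKs and at most 4.69 CPM in GMPs. It was lower in GMPs by −3.63 in WT (edgeR adjusted p = 0.000396) and −3.05 in URE (adjusted p = 0.00232). Of the mitochondrial transporters, Abcb6, which carries porphyrins, was called higher in GMPs in WT (1.30, edgeR adjusted p = 0.0176) and Abcb10 in URE (1.70, adjusted p = 0.0137). For Abcb6, 2932 exonic bases (55.2%) are shared with Gm29253 on the same strand, so its counts are uncertain. Abce1, which recycles ribosomes, rose by 0.85 in WT (edgeR adjusted p = 0.0132), Abcf2 by 0.98 in WT (adjusted p = 0.0193, and 0.0545 without WT GMP replicate 4) and Abcd3, a peroxisomal transporter, by 0.78 in URE (adjusted p = 0.0331), a call lost without any 1 of 5 libraries (URE GMP replicates 2 and 4 and URE LSK replicates 1, 3 and 4, adjusted p up to 0.0963).

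The replicate block removed none of these calls. In WT it added Abca3 (−0.76, edgeR adjusted p = 0.00324), Abcc1 (−0.67, adjusted p = 0.00119), Abcc3 (−1.99, adjusted p = 0.00191) and Abcd4 (−1.12, adjusted p = 0.00479), which were lower in GMPs, and Abcb10 (0.89, adjusted p = 0.000592) and Abcf1 (0.68, adjusted p = 0.000567), which were higher. In URE it added Abca3 (−1.29, edgeR adjusted p = 0.0233) and Abcc5 (−0.67, adjusted p = 0.0366), which were lower, and Abcb6 (0.72, adjusted p = 0.0418) and Abcc4 (1.06, adjusted p = 0.00562), which were higher. Without the block these differences had adjusted p between 0.0635 and 0.553, and some were called when 1 library was left out: in WT, Abcc1, Abcc3 and Abcd4 without WT GMP replicate 1 and Abcb10 and Abcf1 without WT GMP replicate 3, and in URE, Abcc4 without URE GMP replicate 3 or URE LSK replicate 1 and Abcc5 without URE LSK replicate 2 (edgeR adjusted p between 0.0146 and 0.0495).

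**Figure D4:**
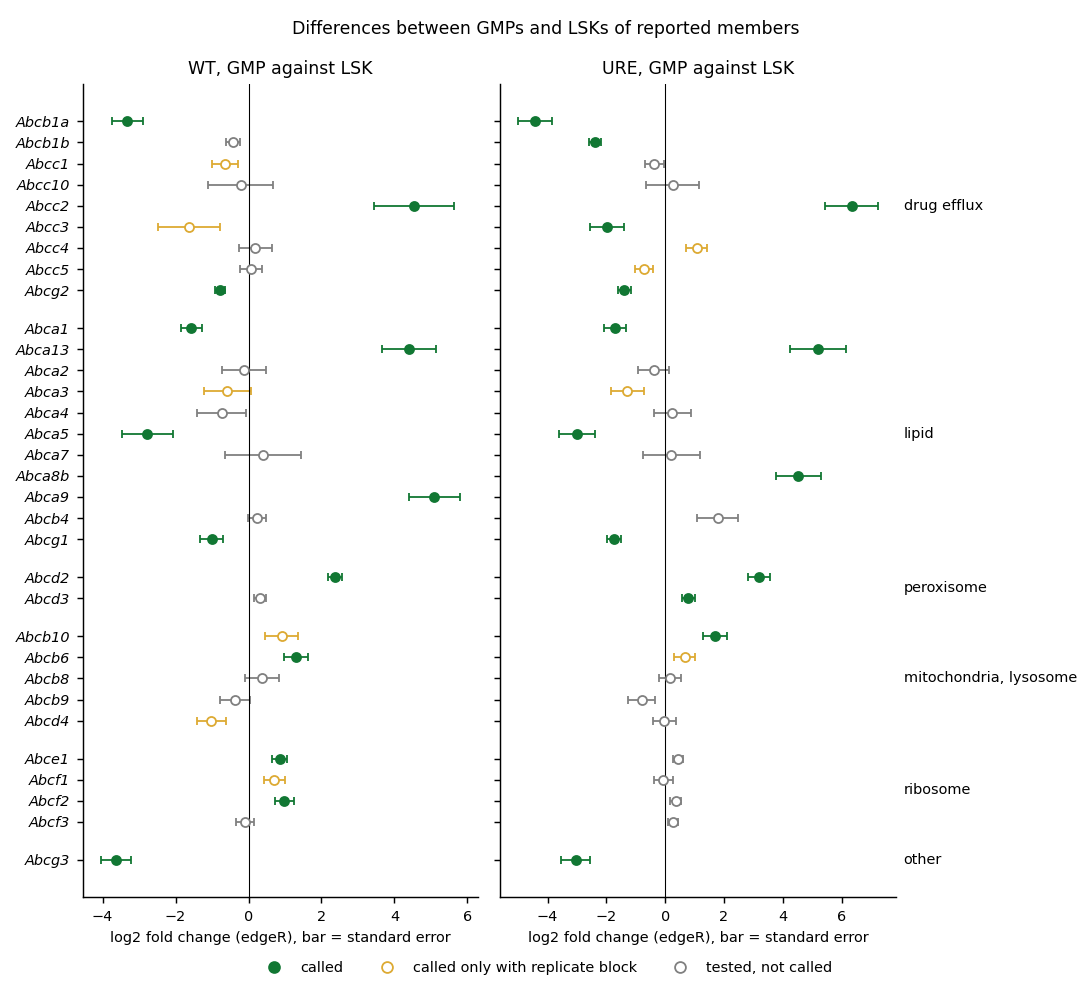
log2 fold change of GMPs against LSKs for the reported members tested in WT (left) and URE mice (right), in rows grouped by role, with the standard error as bars. Filled green points are called, open yellow points are called only with the replicate block and grey points are not called. Abcb1b is at −0.42 in WT, not called, and at −2.39 in URE, while Abcd2, Abca13 and Abcc2 are to the right in both.

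Part of the family followed the replicate number. Beside Abca7, the mean of replicates 1 and 4 was 2.46 to 4.09 times that of replicates 2 and 3 for Abca2 and 1.87 to 2.36 times for Abcc4 over the 4 groups. Abcb1b lay between 0.804 and 0.844 times in each group. The labels give no cause for this pattern. With only replicates 1 and 4 the genotype difference of Abcb1b in GMPs was −2.81. With only replicates 2 and 3, where sex also differed between the genotypes, it was −2.76.

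**Figure D5:**
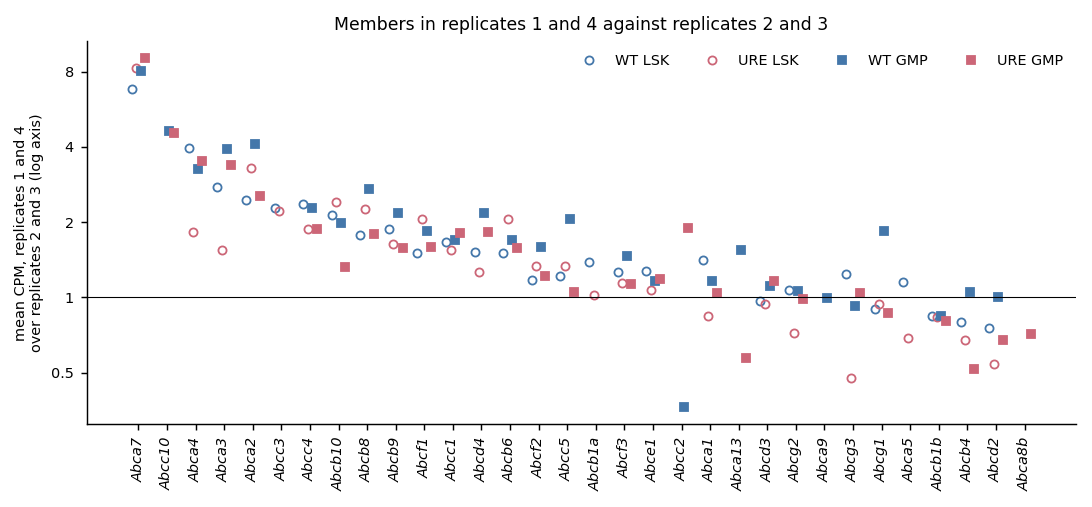
Ratio of the mean CPM of replicates 1 and 4 to that of replicates 2 and 3 (log axis) for the reported members above 1 CPM in both sets, by group (LSK open circles, GMP filled squares, WT blue, URE red). Abca7 is highest in each group, at 6.83 to 9.05, and most of the members plotted lie above 1.

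Genes that work with these transporters were taken from lists chosen for their role. Of 19 genes of sterol regulation and cholesterol efflux, 17 were tested in LSKs, with 1 higher and 1 lower in URE, and 16 in GMPs, with 2 higher and 1 lower, beside 6.14% and 8.3% of all genes called in either direction. The replicate block called 5 in LSKs (9.46% of all genes) and 4 in GMPs (16.3%). Those it added in LSKs include Srebf2, a regulator of sterol synthesis (−1.52, edgeR adjusted p = 0.00653), and Soat1, which esterifies cholesterol (0.65, adjusted p = 0.0313). Npc1, which lets cholesterol out of lysosomes, had 21.2 to 31.1 CPM in URE LSKs and 45.7 to 76.3 CPM in WT LSKs and fell by 1.33 (edgeR adjusted p = 0.00705). Its partner Npc2 fell by 0.69 in GMPs (edgeR adjusted p = 0.0465). The sterol carrier Osbpl5 rose in both cell types, by 1.71 in LSKs (edgeR adjusted p = 0.0409) and 2.14 in GMPs (adjusted p = 0.0213), and Nceh1, which hydrolyses cholesterol esters, rose by 0.85 in GMPs (adjusted p = 0.0156).

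Genes of xenobiotic sensing and glutathione conjugation, the step that makes substrates for the Abcc pumps, numbered 17. None of 14 tested was called in LSKs by edgeR or DESeq2 (3 at an unadjusted p under 0.05), beside 6.14% of all genes with edgeR. In GMPs, 3 of 15 were called higher in URE, beside 4.67% of all genes. Gstm1, a glutathione transferase, had 380 to 712 CPM in WT GMPs and 1756 to 4360 CPM in URE GMPs (2.33, edgeR adjusted p = 0.00339). The microsomal transferase Mgst2 rose by 2.45 (edgeR adjusted p = 0.0075) and the oxygen-regulated transcription factor Hif1a by 1.75 (adjusted p = 0.00523). Of 16 haem and iron-sulphur genes, 1 was called in LSKs and 2 in GMPs, beside 6.14% and 8.3% of all genes. The replicate block called 1 in LSKs (9.46% of all genes) and 3 in GMPs (16.3%). Slc25a37, the iron importer of mitochondria, fell in both cell types (−0.86 in LSKs, edgeR adjusted p = 0.0403, and −0.80 in GMPs, adjusted p = 0.0247). Fech, which inserts iron into haem, rose in GMPs (0.73, edgeR adjusted p = 0.0388). With the replicate block, Gsr, the glutathione reductase (0.93, edgeR adjusted p = 0.0227), and Alas1, of haem synthesis (0.68, adjusted p = 0.0263), were also called higher in URE GMPs. None of 7 genes of peroxisomal beta-oxidation and none of 9 partners of ribosome recycling tested was called between genotypes by edgeR without the block. The shares over all genes were 6.14% in LSKs and 8.3% in GMPs. With the block, Scp2, a thiolase and sterol carrier of peroxisomes, was called higher in URE GMPs (0.68, edgeR adjusted p = 0.00771). At an unadjusted p under 0.05, there were 2 beta-oxidation genes in GMPs and 1 ribosome partner in LSKs, and DESeq2 called 1 beta-oxidation gene in GMPs.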

How the data were processed

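RNA-seq of sorted mouse LSKs and GMPs was analysed, 4 libraries for each of 4 groups. The authors deposited estimated counts per gene, made with salmon on GRCm38 per the submitters' processing notes, summed from transcripts and rounded to whole numbers. The salmon version and the annotation release are not given in the sources used here. The low-input libraries are unstranded and without molecular identifiers, so the floor of 3 counts covers counting error only. Genes were annotated with GENCODE M21.

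Comparisons were fitted with edgeR 4.0.16 (limma 3.58.1, R 4.3.3): TMM, filterByExpr, quasi-likelihood test, Benjamini-Hochberg adjustment over all genes tested. Genes were called below 0.05 after adjustment if they changed more than 1.5-fold, with no fold threshold for the interaction. Each comparison used its own 8 libraries and the interaction all 16. Fitted fold changes carry edgeR's own default prior count. Exact two-sided permutation tests were made on log2 CPM with a prior count of 2. The procedure was tested on simulated data. DESeq2 1.42.0 and other settings served as alternatives.

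The replicate numbers come from the labels. Deviations from the group means of same-numbered libraries correlated with r between 0.24 and 0.71 over the 4 comparisons. Every pair was thus above 0.1, and the replicate number was treated as pairing. Between genotypes, pairs 2 and 3 differed in Y-linked transcripts and pairs 1 and 4 did not. The block therefore does not remove sex from the genotype comparisons. Some libraries of different numbers correlated as much, such as URE 4 with WT 1 (0.4 in LSKs and 0.39 in GMPs, against 0.28 and 0.24 for 4 with 4), so the block in part separates replicates 1 and 4 from 2 and 3. Blocked values, or counts for the marker lists, stand beside the results of the report whose call they change. No pair of replicates was near-identical (chi-square per degree of freedom at least 29.6).

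Named were 8 members by name (Abcb1a, Abcb1b, Abcg2, Abcc1, Abcc4, Abca1, Abcg1, Abca7), every member called between genotypes or in the interaction, and of those called only between GMPs and LSKs the 6 with the largest log2 fold change. Others are named where the block changes a call or a count asks for it. Values of some members and listed genes are not reported here, and the plots leave these members out, while counts over the family and the lists include them. Members and gene lists were chosen with earlier results of these data known. Plots were drawn with matplotlib 3.10.9.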

Additional observations from a re-analysis of the deposited data

Results flagged for a closer look

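In 6 of 68 groups of 4 libraries checked, 1 library lay far from the other 3 (chance gives about 1 in 20 groups). Abca7 had 149 CPM in WT GMP replicate 1 and 8.43 to 22.5 in the others. Abcc1 had 101 CPM in the same library and 40 to 47.1 in the others, and Abca5 had 1.65 CPM there and 0.147 to 0.363 in the others. Abcd2 had 305 CPM in URE GMP replicate 2 and 128 to 155 CPM in the others. Near the limit of detection, Abca13 had 0.436 CPM in WT LSK replicate 2 (others 0.0781 to 0.0961) and Abcc2 had 0.43 CPM in WT LSK replicate 3 (others 0 to 0.0321). Their cause was not tested.

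The genotype difference of Abcb1b differed between GMPs and LSKs by the interaction term (−1.94 on the log2 scale, edgeR adjusted p = 0.00209). In each cell type, all URE libraries were below all WT libraries for Abcb1b.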

How the results depend on the processing

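Counts of members called moved with the setting. For URE against WT in LSKs (3 called) the count was 5 with DESeq2, 7 with the replicate block, 0 with only replicates 2 and 3, 0 with Y-linked transcripts as a covariate, and 1 to 2 when single libraries were left out. In GMPs (4 called) it was 7 with DESeq2, 10 with the replicate block, 1 with only replicates 2 and 3, 2 with the Y-linked covariate and 3 to 5 without single libraries. With only replicates 2 and 3 it was 7 for GMPs against LSKs in WT (13 called), 9 in URE (14 called) and 0 for the interaction (1 called). Without single libraries these counts were 12 to 16, 12 to 16 and 1. The replicate block gave 19, 18 and 2. Counts over all genes moved as well. In LSKs, 930 became 1631 with DESeq2, 1433 with the block, 386 with only replicates 2 and 3 and 510 with the covariate. In GMPs, 1148 became 1995, 2260, 108 and 630 in the same order. With only replicates 2 and 3, 4037 became 2507 for GMPs against LSKs in WT, 3133 became 810 in URE and 194 became 2 for the interaction. The block gave 6041, 4591 and 1047 for these. Fits on 2 or 3 libraries a group and fits with more terms leave fewer degrees of freedom. Genotype and interaction fits on replicates 2 and 3 alone also cannot tell genotype from sex. The cause of the lower counts was not tested further. Other scaling factors, no filter on low counts, 1 fit of all libraries and no fold threshold left each total within 1.5 times. The split by direction moved more: in LSKs, 1 fit of all libraries called 3 higher and 1 lower, against 1 higher and 2 lower as reported. No direction of a called member reversed. Over 56 named results, 432 values under these settings kept their side of the threshold, 35 gained and 33 lost a call, and without single libraries 425 kept theirs, 9 gained and 30 lost. Low counts limit Abca8b, and 4 libraries a group limit every test.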
